A study of Mus musculus with 6 samples.

Results

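The 10 genes described here are Trp53, which encodes the transcription factor p53, and 9 genes known as p53 targets: Zmat3, Ccng1, Cdkn1a, Mdm2, Eda2r, Phlda3, Sesn1, Plk2 and Trp53inp1. They were taken by symbol from the deposited count table of 24516 genes. All 10 were found and all 10 entered the tests, which covered 13427 genes. The cells were the line iMGT-Myh6-eGFP-MEF, mouse embryonic fibroblasts in which doxycycline at 1 ug/mL induces Mef2c, Gata4 and Tbx5, the factors that turn fibroblasts into cardiomyocyte-like cells. Every group carried the inducible factors and received doxycycline. One day before induction the cells were transfected with siRNA against H1f0, the linker histone H1.0 gene (siH1f0), with siRNA against Junb, an AP-1 subunit gene (siJunb), or with control siRNA (siControl). Each group held 2 libraries labelled as biological replicates of this 1 line. Whether the replicates were separate cultures is not given in the sources used here, so the p-values measure the spread between these libraries. The sample labels place the harvest at day 1, and the series description at day 3 after a sort for GFP; which applies was not tested.

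The p53 protein binds DNA as a tetramer at a response element made of paired 10-base half-sites, and its level is set mainly by protein turnover. Mdm2 marks p53 for destruction and is itself a p53 target, which closes a negative feedback loop. The p21 protein of Cdkn1a arrests the cell cycle, and other targets act in DNA repair, cell death and metabolic control. In fibroblasts the pathway is known for arrest and senescence after stress, and in reprogramming for limiting how many cells change identity. All values here are RNA levels; p53 protein was not analysed here, and the labels do not state whether p53 is intact in this line.

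The promoters of Cdkn1a and Ccng1 are shown because both genes fell in siH1f0 and both windows hold a pair of p53 half-sites; part of a Sesn1 promoter is shown because it holds such pairs too, while Sesn1 did not pass the test in siH1f0. Sequences are RefSeq promoters of build GRCm38.p6, 250 bases before to 50 after an annotated start, read 5′ to 3′ on the gene's strand. The Cdkn1a window is chr17:29090729-29091028 on the plus strand and the Ccng1 window chr11:40755237-40755536 on the minus strand. The Sesn1 stretch is chr10:41887253-41887290 on the plus strand. Capitals mark the half-sites of every pair found.
Cdkn1a: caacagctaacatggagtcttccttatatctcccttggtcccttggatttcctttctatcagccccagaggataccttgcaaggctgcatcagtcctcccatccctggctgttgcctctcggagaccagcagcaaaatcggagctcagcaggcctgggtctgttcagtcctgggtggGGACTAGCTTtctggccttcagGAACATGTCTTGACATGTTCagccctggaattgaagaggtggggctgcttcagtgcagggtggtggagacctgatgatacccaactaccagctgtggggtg
Ccng1: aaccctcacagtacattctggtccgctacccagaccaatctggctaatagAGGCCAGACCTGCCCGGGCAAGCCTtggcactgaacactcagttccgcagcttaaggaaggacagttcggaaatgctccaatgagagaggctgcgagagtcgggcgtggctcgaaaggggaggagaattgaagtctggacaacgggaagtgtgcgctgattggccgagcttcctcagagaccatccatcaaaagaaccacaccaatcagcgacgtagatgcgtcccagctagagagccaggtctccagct
Sesn1: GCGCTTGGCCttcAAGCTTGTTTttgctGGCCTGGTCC
A pair meant 2 half-sites of the p53 consensus with a spacer of up to 13 bases and up to 2 mismatches in all, with the C and G of each core kept. The consensus reads the same on both strands. Pairs may overlap each other and hold single half-sites. In Cdkn1a the pair without a spacer had 1 mismatch and lay from -51 to -32 bases from the annotated start of the window shown. A second pair there, with a spacer of 12 bases and 0 mismatches, used the same central half-site. The window at the other annotated start of Cdkn1a, chr17:29093519-29093818, lies downstream of the window shown and holds no pair. The distances given for Cdkn1a apply only to the start of the window shown. In Ccng1 the pair without a spacer had 1 mismatch and lay from -195 to -176. In Sesn1 both pairs had 2 mismatches.

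**Figure D1:**
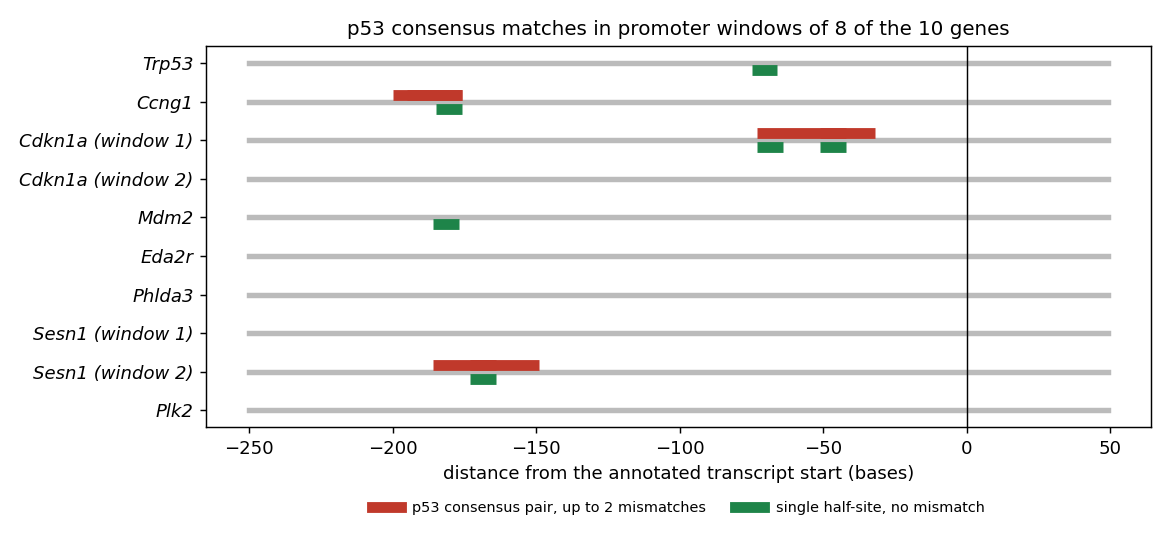
Matches to the p53 consensus in 10 promoter windows of 8 of the genes, by distance from the annotated start in bases; red bars are pairs and green bars single half-sites with no mismatch. Cdkn1a and Sesn1 each have 2 windows, and in each of them 1 window holds pairs.

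Of the 10 genes, 8 had a promoter window in the RefSeq table. Pairs were found in 3 of the 10 windows of these 8 genes, each of a different gene, and a pair occurs in 4.09% of all 32851 windows in the table. Single half-sites without a mismatch were found in 5 of the 10 windows, each of a different gene, against 8.36% of all windows. Those of genes without a pair were GGACTTGCCC in Trp53, at chr11:69580284-69580293, and GAACTTGCCT in Mdm2, at chr10:117710935-117710944. The AP-1 site TGANTCA, which reads the same on both strands, was in none of the 10 windows, and 7.81% of all windows hold it. These are letter matches within 300 bases of sequence and say nothing of binding.

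Library totals ran from 48690447 to 85979630 counts, and the 10 genes held 1413 to 28267 counts each per library. Levels are given as CPM, which are counts relative to the TMM-scaled library size, and as RPKM, the same per kilobase of the deposited gene length. The siRNA targets matched their labels: H1f0 was at 51.6 and 54.4 CPM in siH1f0, in siJunb cells at 666 and 651 CPM, and in siControl cells at 798 and 743 CPM, and Junb at 10.7 and 8.90 CPM in siJunb, 30.0 and 31.1 CPM in siH1f0, and 39.1 and 35.7 CPM in siControl. H1f0 was also called lower in siJunb than in siControl (log2 -0.23, edgeR adjusted p = 0.0210), and Junb in siH1f0 did not pass (log2 -0.29, adjusted p = 0.0778). The 8 fibroblast markers summed to 13251 and 12744 CPM in siH1f0, 11255 and 11306 CPM in siJunb cells, and 11171 and 13142 CPM in siControl. Among them Fn1 and Vim were the highest, Col3a1 was at 1.23 to 1.69 CPM, and Thy1 was at 0 in 5 libraries and 0.0115 CPM in siControl 1. Of the 7 tested, 1 was higher in each knockdown than in siControl, and 2 were higher and 3 lower in siH1f0 than in siJunb. Summed endothelial markers reached at most 0.199 CPM, summed epithelial markers 0.0332 CPM, and the 4 macrophage and leukocyte markers summed to 1.97 to 3.32 CPM, nearly all from Cd68 and Lyz2, with Ptprc at 0 in every library and 1 of 2 tested higher in siH1f0 than in siJunb. The 4 neuronal markers summed to 6.61 and 6.18 CPM in siH1f0, 6.71 and 6.72 CPM in siJunb cells, and 10.2 and 9.53 CPM in siControl, nearly all Tubb3, which was called lower in both knockdowns against siControl; Snap25 and Rbfox3 were at 0. The 7 cardiomyocyte markers summed to 148 and 156 CPM in siH1f0, 116 and 117 CPM in siJunb cells, and 153 and 135 CPM in siControl. Of the 5 tested, 0 were called in siH1f0 and 2 were lower in siJunb, each against siControl, and 3 were higher in siH1f0 than in siJunb. The ribosomal RNA gene Rn45s took 0.308 and 0.348% of counts in siH1f0, 0.655 and 0.499% in siJunb, and 1.90 and 0.627% in siControl. The part of the marker and Rn45s differences in the results below was not tested. Over 9297 genes of at least 10 CPM, the median replicate difference on the log2 scale was 0.0422 in siH1f0, 0.0394 in siJunb and 0.109 in siControl. In bulk RNA, fewer cells with a transcript and less of it per cell cannot be told apart.

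In cells with H1f0 knocked down, most of the p53 targets were lower than in siControl. Zmat3 fell most, 2.49-fold, followed by Eda2r (1.93-fold), Ccng1 (1.58-fold), Phlda3 (1.54-fold), Trp53inp1 (1.46-fold), Cdkn1a (1.41-fold) and Plk2 (1.16-fold). The RNA of Trp53 itself, of Mdm2 and of Sesn1 did not pass the test. By edgeR's quasi-likelihood test with Benjamini-Hochberg adjustment over all genes, called at an adjusted p under 0.05, 7 of 10 genes fell and 3 did not pass. Among all genes 4.27% were called lower, 2.27% higher and 6.55% in either direction. The 10 genes were chosen with earlier results of these data known, so counts set beside these shares are a description. The median log2 change was -0.52 over the 10 genes and 0.00 over all genes. Without siH1f0 1 or siH1f0 2 the test called 3 and 4 of the 10 genes; without 1 of the other libraries it called 6 to 8.

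In cells with Junb knocked down, 4 of the targets were higher than in siControl and 2 were lower. Ccng1 rose 1.49-fold, Zmat3 1.39-fold, Phlda3 1.26-fold and Mdm2 1.13-fold, whereas Plk2 fell 1.27-fold and Sesn1 1.19-fold. Trp53, Cdkn1a, Eda2r and Trp53inp1 did not pass. So 4 of 10 genes rose, 2 fell and 4 did not pass. Among all genes 8.63% were called higher, 7.82% lower and 16.5% in either direction. The median log2 change was 0.23 over the 10 genes and 0.00 over all genes. Without siJunb 1 or siJunb 2 only Ccng1 and Zmat3 were called, and with other single libraries left out 4 to 9 genes were. With total counts as the only scaling, the calls over all genes were 884 higher and 1369 lower, against 1159 and 1050 with TMM, and Mdm2 no longer passed (adjusted p = 0.0685).

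Set directly against siJunb, siH1f0 cells had less of 8 of the 10 RNAs. Zmat3 was 3.45-fold lower, Eda2r 2.37-fold, Ccng1 2.35-fold, Phlda3 1.95-fold, Trp53inp1 1.76-fold, Cdkn1a 1.48-fold, Mdm2 1.23-fold and Trp53 1.12-fold lower. Sesn1 was 1.26-fold higher, and Plk2 did not pass. Among all genes 13.8% were called lower, 12.2% higher and 25.9% in either direction, so a single call is common in this comparison. The median log2 change was -0.69 over the 10 genes and 0.00 over all genes. With total counts as the only scaling, 7 of the 10 genes were lower and 2 higher, and over all genes 1340 were lower and 2222 higher, against 1847 and 1637 with TMM. The comparisons of siH1f0 and siJunb with siControl share the siControl libraries, and each knockdown's libraries also enter the direct comparison, so the 3 sets of values are not independent.

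**Figure D2:**
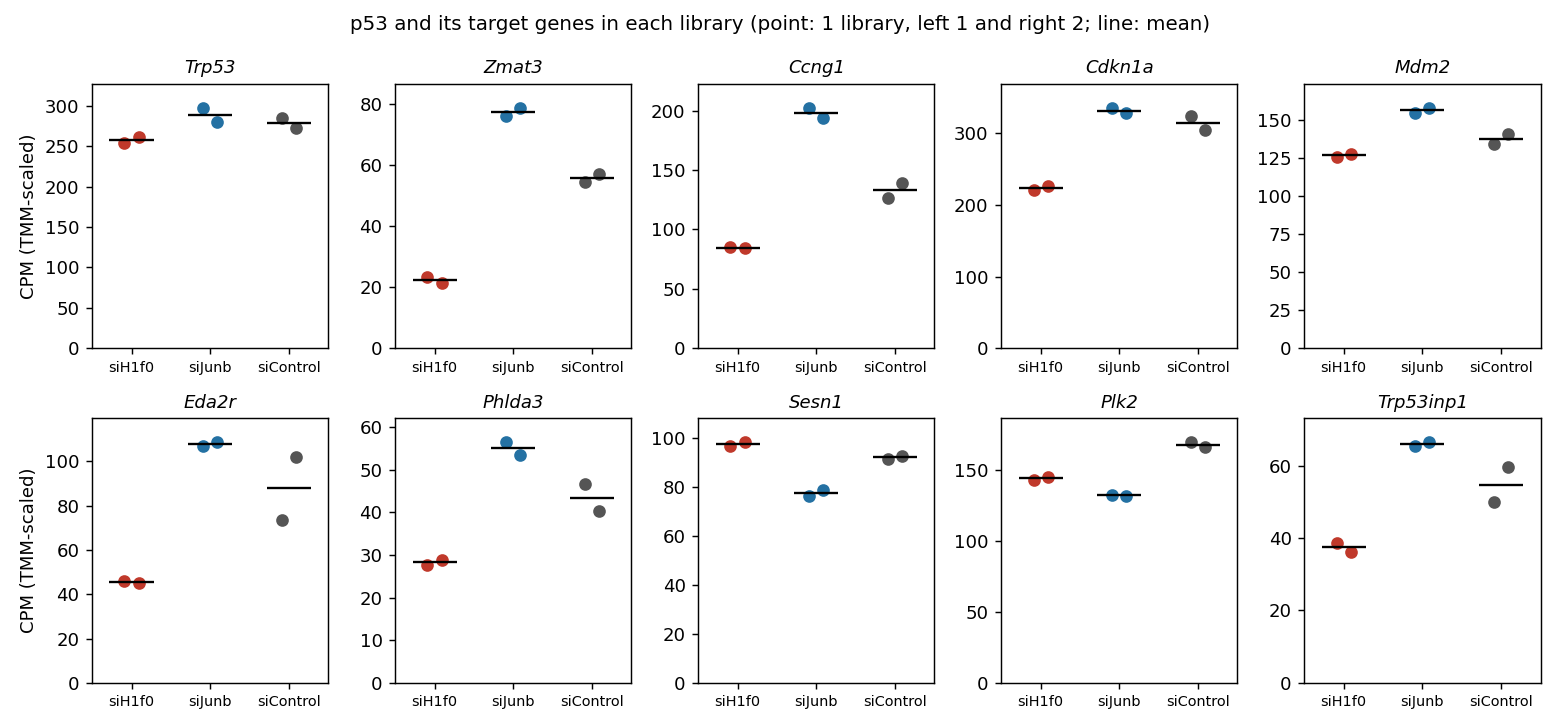
CPM of each of the 10 genes by group, 1 point for each library and a line at the mean of 2; the vertical axes start at 0. For Zmat3, Ccng1, Cdkn1a, Mdm2, Eda2r, Phlda3 and Trp53inp1 siH1f0 lies below siControl and siJunb above it. Of these, Cdkn1a, Eda2r and Trp53inp1 did not pass in siJunb against siControl, and Mdm2 did not pass in siH1f0 against siControl. With 2 libraries a group, lack of overlap between groups carries no test. The share of all genes in this order is not given, so the order is no result about the 10 genes.

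Trp53 is on chromosome 11 from 69580348 to 69591873 (gene 22059, build GRCm38.p6). It stood at 254 and 262 CPM in siH1f0, 298 and 281 CPM in siJunb cells, and 285 and 273 CPM in siControl. The siJunb and siControl libraries overlapped, while both siH1f0 libraries were lower than all others. The log2 difference from siControl was -0.11 ± 0.05 in siH1f0 (SE; edgeR adjusted p = 0.230) and 0.05 ± 0.05 in siJunb (adjusted p = 0.512). The 95% interval of the siH1f0 difference ran from -0.23 to 0.00 and that of siJunb from -0.06 to 0.17. Between siH1f0 and siJunb the log2 change of Trp53 was -0.17 ± 0.05 (adjusted p = 0.0421), a call that was lost without any 1 of the siJunb or siH1f0 libraries (log2 -0.12 to -0.21, adjusted p from 0.110 to 0.322) and with total counts only (adjusted p = 0.136). The log2 difference of siH1f0 from siControl was -0.08 without siControl 1 and -0.15 without siControl 2. That of siJunb was 0.09 and 0.01.

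Mdm2, the ubiquitin ligase that restrains p53, is on chromosome 10 from 117688875 to 117710758 (gene 17246). Its levels were 126 and 128 CPM in siH1f0, 154 and 158 CPM in siJunb cells, and 134 and 141 CPM in siControl. The 3 groups did not overlap, but the steps between them were small. The siJunb difference from siControl was 0.18 ± 0.05 on the log2 scale (SE; edgeR adjusted p = 0.0366). It was lost without either siJunb library (0.20 and 0.17, adjusted p = 0.186 and 0.261), without either siH1f0 library (0.18 each, 0.111 each) and with only the 4 libraries compared (0.107). The siH1f0 difference from siControl, -0.12 ± 0.05, did not pass (adjusted p = 0.188). It was -0.15 without siControl 1 and -0.09 without siControl 2. Mdm2 was lower in siH1f0 than in siJunb, at a log2 change of -0.30 ± 0.05 (adjusted p = 0.00266), which stood at adjusted p = 0.0503 without siH1f0 1.

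Among the genes of cell cycle arrest, Cdkn1a (chromosome 17, 29090979 to 29100722, gene 12575) encodes p21, the inhibitor of cyclin-dependent kinases. It was at 221 and 226 CPM in siH1f0, 336 and 328 CPM in siJunb cells, and 325 and 304 CPM in siControl. Both siH1f0 libraries were well under all the others, and the siJunb libraries lay just above those of siControl. The log2 change in siH1f0 was -0.49 ± 0.05 against siControl (SE; edgeR adjusted p = 0.000969) and -0.57 ± 0.05 against siJunb (adjusted p = 0.000135). Both calls held under each of the 14 alternatives. The siJunb difference from siControl was 0.08 ± 0.05 (95% interval -0.03 to 0.19, adjusted p = 0.313). It was 0.13 without siControl 1 and 0.02 without siControl 2.

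Ccng1 (chromosome 11, 40748552 to 40755309, gene 12450) encodes cyclin G1, a p53-induced partner of protein phosphatase 2A. It was at 84.8 and 83.9 CPM in siH1f0, 203 and 194 CPM in siJunb cells, and 127 and 139 CPM in siControl. The groups were far apart beside the gap within each pair. The log2 change was -0.66 ± 0.06 in siH1f0 (SE; edgeR adjusted p = 0.000500) and 0.58 ± 0.06 in siJunb (adjusted p = 0.000645), each against siControl. Between siH1f0 and siJunb it was -1.23 ± 0.06 (adjusted p = 7.59e-06). All 3 calls held under the 14 alternatives, with adjusted p of at most 0.0210.

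Plk2 (chromosome 13, 110395044 to 110400844, gene 20620) encodes polo-like kinase 2, a p53 target that also responds to serum. It was at 143 and 145 CPM in siH1f0, 133 and 132 CPM in siJunb cells, and 170 and 166 CPM in siControl. Both knockdowns lay below siControl, and siJunb was the lower of them. The siJunb change was -0.34 ± 0.05 (SE; edgeR adjusted p = 0.00221); without siJunb 1 or siJunb 2 it was -0.35 and -0.34 and just missed (adjusted p = 0.0512 and 0.0563). The siH1f0 change was -0.22 ± 0.05 (adjusted p = 0.0257). It was lost without any 1 of the siH1f0 or siJunb libraries (-0.21 to -0.23, adjusted p from 0.0998 to 0.291) and with only the 4 libraries compared (0.0975). The siH1f0 difference from siJunb, 0.12 ± 0.05, did not pass (adjusted p = 0.0782). It passed with only the 4 libraries compared (adjusted p = 0.000705), over genes of at least 5 CPM (0.0430), and with total counts only (0.0243). It was 0.12 without siControl 1 and 0.13 without siControl 2.

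Of the genes linked to growth control and cell death, Zmat3 (chromosome 3, 32334792 to 32365665, gene 22401), an RNA-binding zinc finger protein gene, differed most. It was at 23.5 and 21.5 CPM in siH1f0, 76.2 and 78.9 CPM in siJunb cells, and 54.6 and 57.2 CPM in siControl. No group came near another. Against siControl the log2 change was -1.31 ± 0.06 in siH1f0 (SE; edgeR adjusted p = 2.76e-05), number 97 among 13427 genes ordered from the lowest log2 change. In siJunb it was 0.47 ± 0.06 (adjusted p = 0.00196). Between siH1f0 and siJunb it was -1.79 ± 0.06 (adjusted p = 3.00e-06), number 30 of 13427 in the same order. All 3 calls held under the 14 alternatives, with adjusted p of at most 0.0429.

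Eda2r (chromosome X, 97333837 to 97377234, gene 245527) encodes a TNF family receptor for ectodysplasin A2. It was at 46.0 and 45.1 CPM in siH1f0, 107 and 109 CPM in siJunb cells, and 73.8 and 102 CPM in siControl. The siControl libraries were far apart, by 0.47 on the log2 scale, yet both lay between the knockdowns. The siH1f0 change from siControl was -0.95 ± 0.12 (SE; edgeR adjusted p = 0.00362), and it stood at -0.96 and -0.93 without siH1f0 1 or siH1f0 2 (adjusted p = 0.0511 and 0.0523). The siJunb difference of 0.30 ± 0.12 did not pass (adjusted p = 0.133). It was 0.08 without siControl 1 and 0.54 without siControl 2, the higher control. With no count filter it passed (adjusted p = 0.000158). Between siH1f0 and siJunb the change was -1.24 ± 0.13 (adjusted p = 0.000269) and held under the 14 alternatives.

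Phlda3 (chromosome 1, 135766085 to 135769134, gene 27280) encodes a small pleckstrin-homology protein that restrains Akt. It was at 27.6 and 28.9 CPM in siH1f0, 56.4 and 53.5 CPM in siJunb cells, and 46.6 and 40.3 CPM in siControl. The order of the groups was that of Zmat3, with less distance between siJunb and siControl. The log2 change was -0.62 ± 0.08 in siH1f0 against siControl (SE; edgeR adjusted p = 0.00274; -0.59 and 0.0614 without siH1f0 1) and -0.96 ± 0.08 against siJunb (adjusted p = 8.93e-05). In siJunb it was 0.34 ± 0.08 (adjusted p = 0.0193). That call was lost without either siJunb library (0.30 and 0.38, adjusted p = 0.167 and 0.103), without either siH1f0 library (0.33 each, 0.0547 and 0.0534) and with only the 4 libraries compared (0.0557).

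Trp53inp1 (chromosome 4, 11156441 to 11174379, gene 60599) encodes a stress protein that acts with p53 and in autophagy. It was at 38.7 and 36.2 CPM in siH1f0, 65.5 and 66.4 CPM in siJunb cells, and 49.8 and 59.5 CPM in siControl. As for Eda2r, siControl 2 was the higher control library. The siH1f0 change from siControl was -0.54 ± 0.08 (SE; edgeR adjusted p = 0.00737), and it missed without siH1f0 1 or siH1f0 2 (-0.59 and -0.50, adjusted p = 0.0679 and 0.106). The siJunb difference of 0.27 ± 0.08 just missed (adjusted p = 0.0552). It passed with DESeq2 (0.0286) and with no count filter (0.00162). It was 0.15 without siControl 1 and 0.40 without siControl 2. Against siJunb the siH1f0 change was -0.82 ± 0.08 (adjusted p = 0.000296).

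Sesn1 (chromosome 10, 41810574 to 41908436, gene 140742) encodes sestrin 1, a stress-induced brake on mTORC1 that is also a FoxO target. It was at 96.8 and 98.3 CPM in siH1f0, 76.4 and 78.7 CPM in siJunb cells, and 91.7 and 92.8 CPM in siControl. This order, with siH1f0 highest and siJunb lowest, was the opposite of that of Zmat3. The siJunb change from siControl was -0.25 ± 0.05 (SE; edgeR adjusted p = 0.0108), and it was lost without siJunb 1 or siJunb 2 (-0.23 and -0.27, adjusted p = 0.146 and 0.0996). The siH1f0 difference of 0.08 ± 0.05 did not pass (95% interval -0.03 to 0.19, adjusted p = 0.357). Between siH1f0 and siJunb Sesn1 was higher in siH1f0 by 0.33 ± 0.05 (adjusted p = 0.00169), a call that held under the 14 alternatives.

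**Figure D3:**
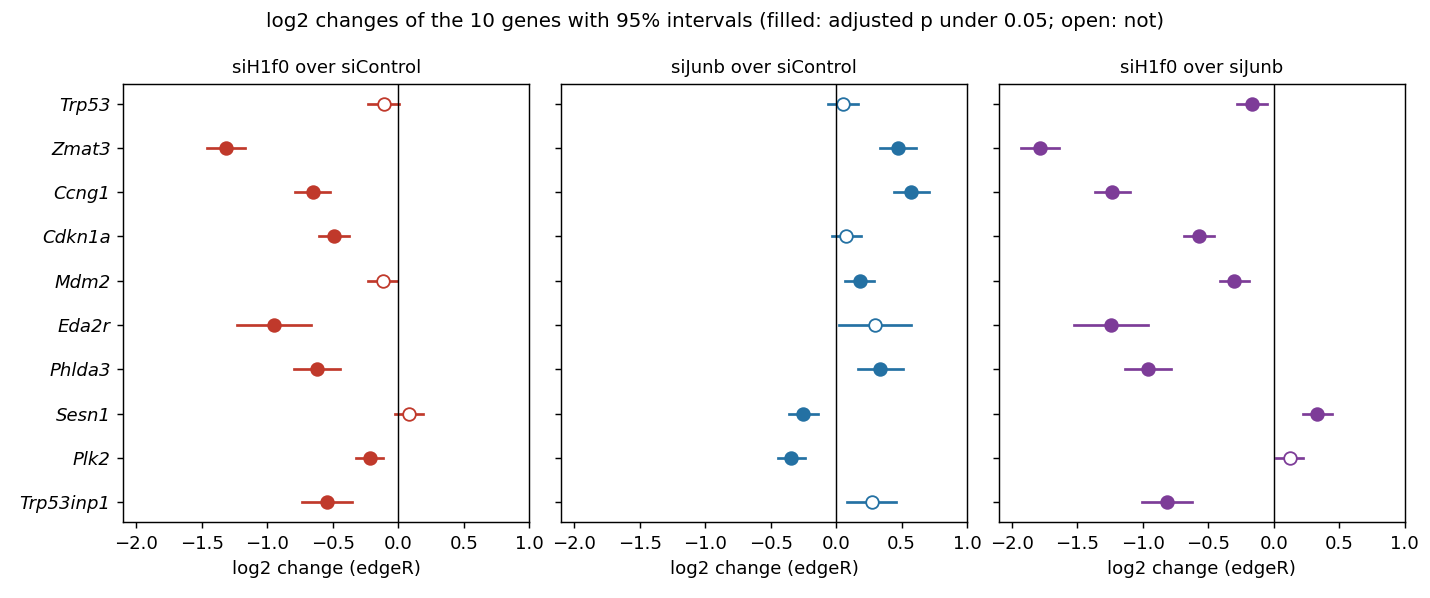
log2 changes of the 10 genes with 95% intervals in 3 comparisons, from the edgeR fit to all 6 libraries; filled points have an adjusted p under 0.05 and open points do not. Zmat3 lies furthest left in siH1f0 over siControl (-1.31) and in siH1f0 over siJunb (-1.79), and in siH1f0 over siJunb Sesn1 has the only filled point to the right of 0.

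Per kilobase, Cdkn1a and Trp53 were the highest of the 10 genes in every group. In siH1f0 Trp53 stood at 138 ± 3.06 RPKM and Cdkn1a at 110 ± 1.66 RPKM (SD, n = 2). In siJunb they were at 155 ± 6.61 and 163 ± 2.76 RPKM, and in siControl at 149 ± 4.69 and 155 ± 7.17 RPKM, so neither stood clearly above the other in those groups. In siControl Plk2 (59.9 ± 0.836 RPKM), Mdm2 (44.4 ± 1.49) and Ccng1 (38.1 ± 2.58) came next, then Phlda3 (29.6 ± 3.04) and Sesn1 (27.6 ± 0.239), which did not differ beyond their spread. Eda2r (15.1 ± 3.42 RPKM), Trp53inp1 (10.1 ± 1.26) and Zmat3 (7.19 ± 0.232) were the lowest. In siJunb Ccng1, at 56.8 ± 1.83 RPKM, stood above Plk2 at 47.2 ± 0.210 RPKM. In siH1f0 Zmat3 was at 2.89 ± 0.179 RPKM. The 10 genes together took 0.108 and 0.109% of all counts in siH1f0, 0.147 and 0.145% in siJunb, and 0.137% in each siControl library.

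Across the 6 libraries, 8 of the genes varied alike and Sesn1 and Plk2 did not. Zmat3, for example, had a Pearson r on log2 CPM of 0.98 with Cdkn1a, 0.98 with Trp53inp1, 0.97 with Ccng1 and 0.87 with Trp53, but -0.85 with Sesn1 and -0.10 with Plk2. Over all 45 pairs r ran from -0.95 to 0.99, with 30 positive. The 6 libraries form 3 groups, so these values describe the group pattern and carry no test. Among 9900 other genes of at least 5 CPM, those most like Zmat3 were Zfp131 (r = 0.999), G3bp2 (0.997) and Ywhab (0.997), those most like Ccng1 were Sh3bp2, Erlin1 and Rap2b (each 0.998), and among those most like Trp53 were Lpar6 and Mrpl57 (each 0.988). G3bp2, a stress granule protein gene, was at 167 and 167 CPM in siH1f0, 354 and 354 CPM in siJunb cells, and 289 and 309 CPM in siControl. Ywhab followed the same order with small steps, at 486 and 480 CPM in siH1f0, 551 and 556 CPM in siJunb cells, and 527 and 533 CPM in siControl. Rap2b is itself on the list of other p53 targets.

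Beyond the 10 genes, 42 other p53 targets were examined in 3 lists, and all 42 were tested. The lists too were chosen with earlier results of these data known. In siH1f0 against siControl 13 fell and 29 did not pass; of all genes 4.27% fell. The median log2 change was -0.13, against 0.00 over all genes. Sulf2, an extracellular heparan sulfatase gene, fell to 14.2 ± 0.502 CPM in siH1f0, against 29.6 ± 3.01 CPM in siControl (SD, n = 2 each; log2 -1.06, edgeR adjusted p = 0.000253). Ephx1, a microsomal epoxide hydrolase gene, fell to 30.6 ± 0.823 CPM in siH1f0, against 54.4 ± 1.52 CPM in siControl (log2 -0.83, adjusted p = 0.000128). These were the 2 of the 13 whose calls held under every alternative. Aen (log2 -0.57) and Bax (-0.43) of cell death, Ddit4l (-0.65), Plk3 (-0.41) and Btg2 (-0.25) of arrest, repair and metabolism, and Rap2b (-0.29) fell. Without 1 siH1f0 library each of these lost its call (adjusted p up to 0.252), and the count of 13 became 2 without either siH1f0 library, 3 without either siJunb library, 19 without siControl 1 and 23 without siControl 2.

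In siJunb against siControl 10 of the 42 rose, 4 fell and 28 did not pass, with a median log2 change of 0.11. Of all genes 8.63% rose and 7.82% fell, so the count that fell is near the background. Fas, a death receptor gene, rose to 26.3 ± 1.44 CPM in siJunb, against 18.5 ± 0.915 CPM in siControl (SD, n = 2 each; log2 0.51, edgeR adjusted p = 0.00278). Tnfrsf10b, the TRAIL receptor gene (0.40), Pmaip1, which encodes Noxa (0.30), Tigar (0.38), Btg2 (0.37), Sesn2 (0.31), Sulf2 (0.47), Rap2b (0.31) and Abhd4 (0.21) rose as well. The genes that fell were Gadd45a (-0.33), Pidd1 (-0.26), Pltp (-0.19) and Trp53cor1, the lincRNA-p21 gene (-0.64, at 1.66 and 1.36 CPM in siJunb against 2.46 and 2.26 CPM in siControl). All 14 calls were lost without at least 1 of the siJunb libraries (highest adjusted p 0.330); the count was 2 without either siJunb library, 9 and 10 without a siH1f0 library, and 22 and 24 without a siControl library.

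Between the knockdowns 22 of the 42 were lower in siH1f0, 1 was higher and 19 did not pass, with a median log2 change of -0.24. Of all genes 13.8% were lower and 12.2% higher. The 1 that was higher was Pltp, a phospholipid transfer protein gene (0.38). Sulf2 was at 14.2 ± 0.502 CPM in siH1f0 and 40.9 ± 1.44 CPM in siJunb (SD, n = 2 each; log2 -1.53, edgeR adjusted p = 1.21e-05). Ephx1 (log2 -0.85) and Rap2b (-0.60) were lower too. Of the cell death genes Aen (log2 -0.83), Fas (-0.75) and Tnfrsf10b (-0.51) were lower. So were Btg2 (-0.62), the excision repair nuclease gene Ercc5 (-0.46) and Tigar (-0.38) of the arrest, repair and metabolism genes. Of the 23 calls 12 held under every alternative, these genes among them, and 11 were lost without a siJunb or siH1f0 library (adjusted p up to 0.337). The count was 12 to 14 without a siJunb or siH1f0 library and 29 without either siControl library.

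**Figure D4:**
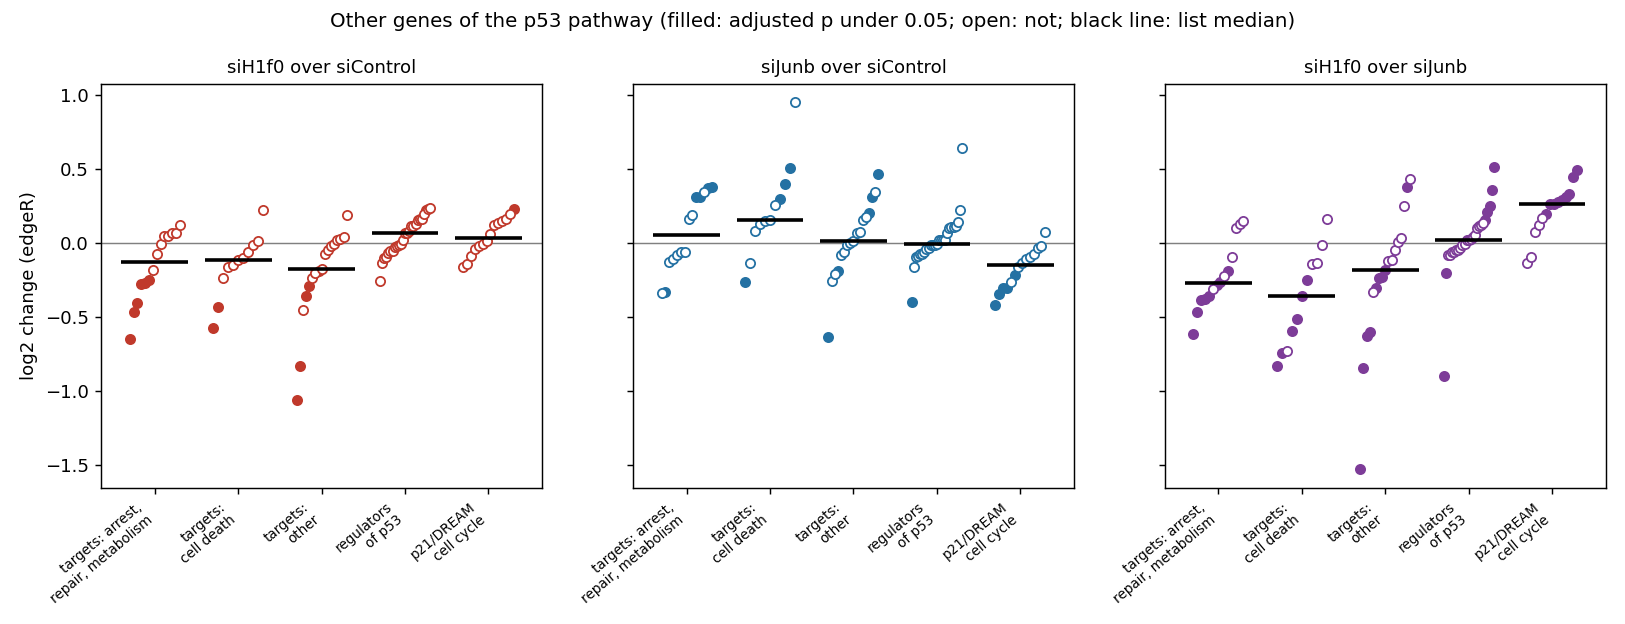
log2 changes of 42 other p53 targets in 3 lists, of 25 regulators of p53 and of 14 cell cycle genes repressed through p21 and DREAM, in 3 comparisons; each point is a gene, filled where the adjusted p is under 0.05, and the black line is the median of the list. The median of the p21 and DREAM list is 0.04 in siH1f0 over siControl, -0.15 in siJunb over siControl and 0.26 in siH1f0 over siJunb.

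Among 25 regulators of p53, Chek1, a DNA damage checkpoint kinase gene, rose in siH1f0 against siControl (log2 0.22, edgeR adjusted p = 0.0343), and 24 did not pass; the call was lost without any 1 siH1f0 or siJunb library (adjusted p up to 0.326). In siJunb against siControl Mdm4, which encodes the Mdm2 partner that masks the p53 activation domain, fell to 70.6 and 64.5 CPM, against 87.1 and 91.4 CPM in siControl (log2 -0.40, adjusted p = 0.00349; 0.0671 without siJunb 2), and 24 did not pass. Between the knockdowns 5 were higher in siH1f0 and 2 lower, and 18 did not pass. Of all genes 6.55% were called in siH1f0 against siControl, 16.5% in siJunb against siControl and 25.9% between the knockdowns, so the counts of regulators are near or under the background in each comparison and are no result about the list. Mdm4 was at 96.1 and 96.8 CPM in siH1f0 against 70.6 and 64.5 CPM in siJunb (log2 0.51, adjusted p = 0.000509), and this call held under every alternative. Trp53bp2 (0.36), Ppm1d, a phosphatase gene (0.25), Chek2 (0.21) and Chek1 (0.16) were also higher, and the kinase gene Hipk2 (-0.90) and Pml (-0.20) lower; these 6 lost their calls without a siJunb library (adjusted p up to 0.297). Hipk2 was at 67.8 and 61.0 CPM in siH1f0, 120 and 121 CPM in siJunb cells, and 50.1 and 104 CPM in siControl, so its siControl libraries lay far apart. Of the p53 family, Trp63 was at 0.0575 to 0.254 CPM, and Trp73 had at most 2 counts and was not tested.

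Of 14 cell cycle genes that p21 represses through the DREAM complex, Top2a rose in siH1f0 against siControl (log2 0.23, edgeR adjusted p = 0.0407; up to 0.312 without a siH1f0 or siJunb library) and 13 did not pass. In siJunb 5 of 14 fell, Ube2c (-0.42), Foxm1 (-0.35), Ccnb2 (-0.30), Cenpf (-0.30) and Top2a (-0.22), and 9 did not pass; leaving out a siJunb library ended all 5 calls (highest adjusted p 0.209). Between the knockdowns 9 of 14 were higher in siH1f0, and 5 did not pass. Of all genes 2.27% rose in siH1f0 against siControl, 7.82% fell in siJunb against siControl, and 12.2% were higher in siH1f0 than in siJunb. In either direction 6.55% were called in siH1f0 against siControl, so 1 call of 14 there is near the background. Foxm1, a transcription factor gene of the G2 phase, had 145 and 146 CPM in siH1f0 cells, against 106 and 101 CPM in siJunb cells (log2 0.50, adjusted p = 0.000428), and Top2a 547 and 541 CPM in siH1f0 cells, against 397 and 401 CPM in siJunb cells (log2 0.45, adjusted p = 0.000675). These 2 calls held under every alternative, and the other 7, Mybl2 (0.28) among them, were lost without a siJunb or siH1f0 library (adjusted p up to 0.238).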

How the data were processed

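Poly(A) RNA was sequenced from 6 libraries, and the authors deposited 1 table of raw counts (whole, not normalised) for each gene symbol beside a gene length column. Per the submitters' processing notes HISAT2, Subread, featureCounts and the build mm10 were used; the sources used here give no versions, annotation, strand setting or rule for multimapping reads. The deposited gene length, in bases, was used only for RPKM. Titles gave each library's group and number.

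The tests used edgeR 4.0.16 in R 4.3.3: filterByExpr (13427 genes kept), TMM factors (0.979 to 1.02), and 1 quasi-likelihood F test model of the 3 groups over the 6 libraries. p-values were adjusted by Benjamini-Hochberg over all genes tested. CPM and RPKM use TMM-scaled sizes. SE is the absolute log2 change divided by the square root of F. For 2 libraries a group the smallest two-sided p of an exact permutation test is 0.333. The method was tested on simulated data. Alternatives were RLE size factors, scaling by total counts, no filter, a floor of 5 CPM on the mean, DESeq2 1.42.0, limma-voom (limma 3.58.1), a fit to the 4 libraries compared, a replicate block, and leaving out each library, where the lone library left in a group is taken to vary as the others do. A crossed block was added after seeing the data.

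The 10 genes, the lists and the rule for named genes were chosen with earlier results of these data known. The rule names the 10 genes, up to 3 called genes per list and direction with the smallest p, and the 3 genes most alike to Trp53, Zmat3 and Ccng1, of which 1 is not reported here. Chek1 and Chek2 between the knockdowns, Cenpf and Top2a in siJunb, Trp63 and Trp73 are named outside this rule, after their values were seen. Coordinates and promoters are RefSeq's for GRCm38.p6, the assembly of mm10; all 10 symbols were found there, and 8 have a promoter.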

Additional observations from a re-analysis of the deposited data

How the results depend on the processing

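No called change of the 10 genes reversed in direction under any alternative. Without 1 siControl library the lone control has no spread of its own, and the siControl libraries differed most from each other. Calls gained that way are not read as results. Of 140 values per comparison (10 genes under 14 alternatives), 127 kept their side of the threshold for siH1f0 over siControl, 116 for siJunb over siControl and 128 for siH1f0 over siJunb; 11, 16 and 7 lost a call and 2, 8 and 5 gained one. With 1 library left out, the genes called of the 10 ranged from 3 to 8, from 2 to 9 and from 7 to 10 in the same order, against 7, 6 and 9. For the 42 other targets the ranges were 2 to 23, 2 to 24 and 12 to 29, against 13, 14 and 23. For all genes they were 116 to 4932, 352 to 5521 and 1304 to 6435, against 879, 2209 and 3484.

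With only the 4 libraries compared, 3 other targets and 325 genes in all were called for siH1f0 over siControl, 1094 genes for siJunb over siControl and 6416 for siH1f0 over siJunb. With no count filter 1921 genes were called for siH1f0 over siControl. The cause was not tested. Same-numbered libraries did not deviate together (correlations over genes of 0.0207 for siJunb and siControl, -0.118 for siH1f0 and siControl, and 0.0408 for siH1f0 and siJunb), so the numbers were not taken as pairs. With the replicate block 6, 5 and 8 of the 10 genes were called, 7 other targets and 550 genes in all for siH1f0 over siControl, 10 and 1684 for siJunb over siControl, and 20 and 2919 for siH1f0 over siJunb. The block ended the calls of Mdm2 in siJunb over siControl (adjusted p = 0.0623), Plk2 in siH1f0 over siControl (0.0624) and Trp53 in siH1f0 over siJunb (0.0716), which is not read as a weaker effect. Crossing the siControl numbers in the block, chosen after seeing the data, gave 7 of the 10 genes, 12 other targets and 938 genes in all for siH1f0 over siControl. With 2 libraries a group, calls rest on a spread estimated across genes, and a difference that missed the threshold is not shown to be absent.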
